A study of Gossypium hirsutum with 3 samples.

Results

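The protein kinases, receptor kinases and protein phosphatases that the study tabulated from cotton fiber initials and ovules formed a set of 34 genes, out of 11143 genes on the array. They were found by a keyword rule applied to the gene descriptions of the study's table, which names a protein kinase, a receptor kinase, a MAP kinase, a serine/threonine kinase, a protein phosphatase or a phosphatase 2 enzyme and leaves out ribosomal proteins. Of the 34 genes, 12 were described as receptor kinases, 20 as other protein kinases and 2 as protein phosphatases. The table held 1038 genes, of which 1036 were found on the array, and all 34 members were measured. The members were chosen by measured values, since the study entered genes in its table for a difference of at least 2-fold, either from ovules to fiber of 1 dpa or between fiber of different ages, partly on these same arrays. Their differences are therefore given as a description. The calls below mark where a member stood in a fit over all genes and are no independent evidence for it, and no test was made of the set.

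Cotton fibers are single cells that grow out of the epidermis of the ovule, and dpa means days post anthesis. RNA of fiber initials and RNA of whole ovules, both at 1 dpa and both from field grown *Gossypium hirsutum*, were hybridized together on each of 3 arrays, labeled with Cy3 (green) or Cy5 (red). By the methods, the plants were of the lines DES119 and ST4793R, the initials were broken off frozen ovules with glass beads, and replicates were separate harvests. No ovule was stripped of its initials before RNA isolation, so the ovule RNA also holds the transcripts of fiber initials. The labels call the RNA total RNA, whereas the methods and the extraction entry name polyribosomal RNA, the fraction bound to ribosomes, and which is right was not tested.

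The direction of the comparison is not settled in these data. The scanner files name the RNA in each channel by a code, SP1 or SP2 followed by a letter. Array 1 carried SP2A in green and SP1A in red, array 2 carried SP1E in green and SP2A in red, and array 3 carried SP2C in green and SP1F in red. By the labels, the fiber RNA was green on the arrays numbered 1 and 2 and red on array 3, so labels and codes name different arrays as the dye swap. Over 11081 genes, the red over green log2 ratios of arrays 1 and 2, which the labels put in the same orientation, correlated at r = -0.58 (Spearman -0.354), and those of arrays 1 and 3, which the labels put in opposite orientations, correlated at r = 0.522 (Spearman 0.321). The ratios of arrays 2 and 3 correlated at r = -0.81 (Spearman -0.711). Ratios are therefore given as SP2 RNA over SP1 RNA. SP2 stands for fiber initials if the label of array 1 holds, and every sign below turns, so that higher reads as lower, if the labels of arrays 2 and 3 hold instead. SP2A was the green code of array 1 and also the red code of array 2. It is therefore not certain that the 3 arrays hold 3 separate SP2 harvests. The errors below are moderated SE, in which the spread of a gene between arrays is drawn toward that of all genes. They can be smaller or larger than the gene's own spread, and they rest on the arrays only.

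Median background-subtracted signals were between 182 and 249 in green and between 130.5 and 310.5 in red, and 86.5% to 95.3% of gene spots were above background in each channel. Negative controls varied most on array 1, with an SD of 102 in green against 5.85 and 5.32 on arrays 2 and 3. The genes listed as markers of the tissues were read the same way as the members. The lists were chosen with earlier results of these data known, so they are no independent reading of the tissues. All 7 histone and topoisomerase II genes, which mark dividing cells, were lower in SP2 RNA, with a median log2 ratio of -2.26 and a range of -3.33 to -1.56. They come from the study's table and were therefore also chosen by measured values, on this contrast or on the one between fiber ages. The 5 genes listed as fiber markers all had a mean above 0 (0.37 to 1.29) and 2 of them were called higher, GhFDH (1.17 ± 0.25) and the MYB109 gene (1.29 ± 0.27). GhACY was at -0.73 on array 1 but at 1.84 and 1.78 on arrays 2 and 3. The part of dividing cells or of fiber cells in the results below was not tested, and in RNA from whole tissue fewer cells of a type and less RNA per cell cannot be told apart.

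Protein kinases transfer phosphate from ATP to serine, threonine or tyrosine residues of other proteins, and protein phosphatases remove it. Plant receptor kinases carry a domain outside the cell that senses a ligand, such as leucine-rich repeats, a lectin domain or LysM motifs, and a kinase domain inside that passes the signal on. Soluble kinases act further along, in mitogen-activated protein (MAP) kinase cascades, in calcium decoding and in cell division. Young fiber cells leave the division cycle and begin rapid expansion, and hormones such as brassinosteroid, auxin and ethylene affect cotton fiber growth. The names used here are those of the best protein match of each cotton sequence, often from another species, and 7 of the 34 matches were weak (expect value above 1e-05). Contigs are assembled from several cDNA reads and singletons are single reads. No sequences of the genes or probes were used here.

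A gene was called higher or lower when its adjusted p in a fit over all 11081 genes was under 0.05, with n = 3 arrays (limma, Benjamini-Hochberg adjustment). Of the 34 members, 9 were called higher in SP2 RNA, 12 were called lower and 13 were not called. With the arrays all turned the other way the same counts read as 12 higher and 9 lower. Over all genes tested, 3.95% were called higher and 8.31% lower, and since the members were chosen partly on this contrast nothing is read from the comparison of these shares. The mean log2 ratios ran from -2.62 to 1.68 with a median of 0.19, beside a median of 0.04 over all genes. They had the same sign on all 3 arrays for 29 members, 15 of them positive and 14 negative. At least 2-fold differences were found for 18 members, and each of these had the same sign on all arrays. Such differences were found for 719 of all 11081 genes and 438 of the other 1002 tabulated genes, with the same sign on all arrays for 703 and 433. The tabulated genes were chosen by measured values too, so nothing is read from these shares. The members just inside 2-fold were Contig2019 (1.01) and Contig3000 (1.04), and those just outside were Contig14730 (0.87) and Contig15933 (0.85). The higher to lower split of 9 to 12 depended on the scaling, and was 3 to 10 with median centring and 4 to 10 with the deposited ratios. Without array 1 it was 14 to 12, without array 2 it was 5 to 12 and without array 3 it was 7 to 13. No member was called with the arrays turned by the labels or with an ordinary test that does not share the error among genes, where 2 and 20 members had an unadjusted p under 0.05.

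**Figure D1:**
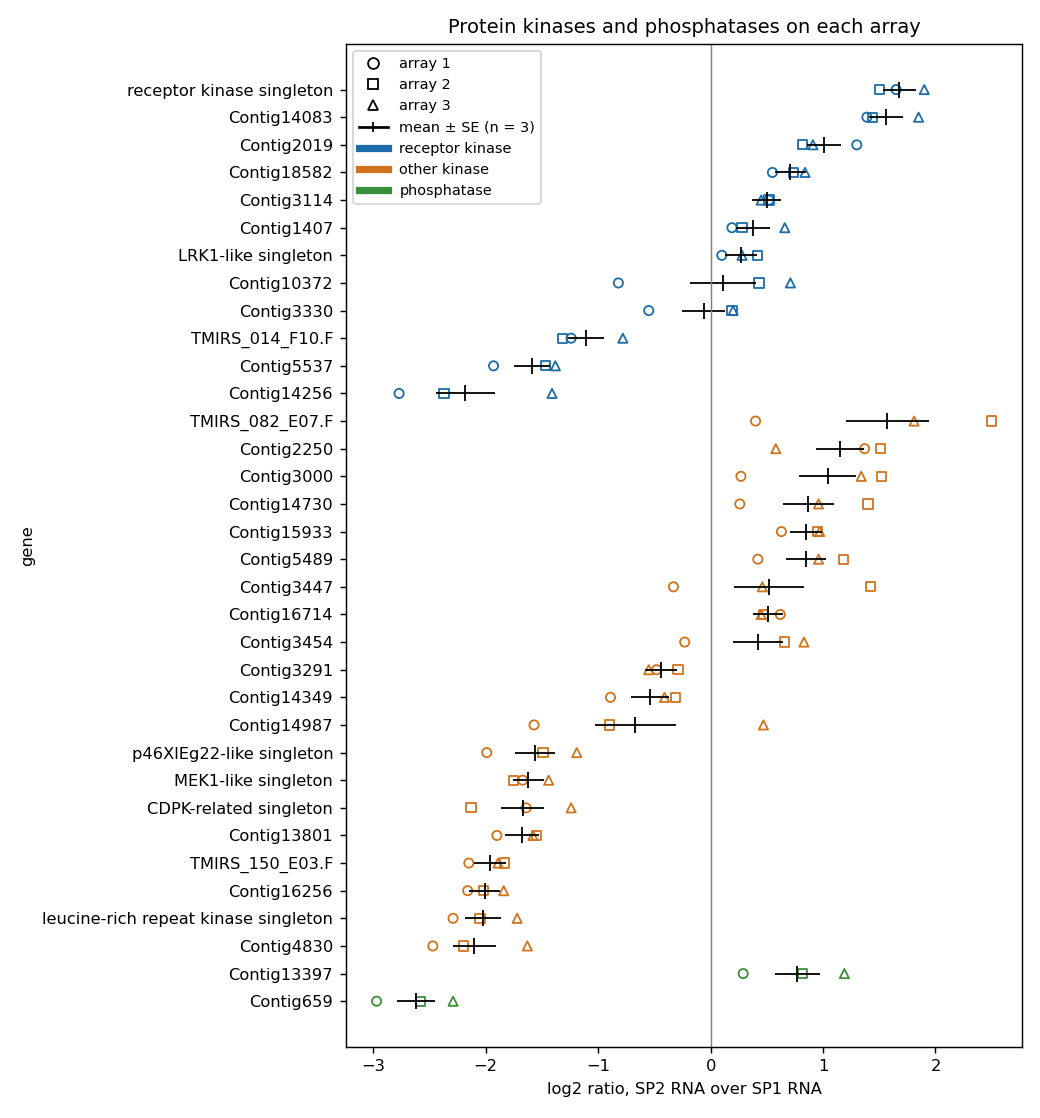
Log2 ratio of SP2 RNA over SP1 RNA (x axis) for each of the 34 genes (y axis), with open symbols for arrays 1, 2 and 3, a black tick for the mean and a bar for its moderated SE (n = 3 arrays). Blue marks receptor kinases, orange other kinases and green phosphatases; 29 genes have all 3 symbols on the same side of 0.

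Receptor kinases stood on both sides. Of the 12, 4 were called higher in SP2 RNA, 3 lower and 5 were not called, with a median log2 ratio of 0.32 and a range of -2.18 to 1.68. The one with the highest ratio of all 34 members was the receptor kinase singleton, a match to a putative rice receptor kinase. Its normalized signal was 11392, 6349 and 7861 in SP2 RNA on arrays 1, 2 and 3, and 3626, 2239 and 2107 in SP1 RNA. The lowest SP2 signal was above the highest SP1 signal, and the log2 ratios of 1.65, 1.50 and 1.90 gave a mean of 1.68 ± 0.15 (moderated SE, n = 3), or 3.215-fold. It was also the brightest member in SP2 RNA on every array.

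Contig14083, a match to a putative Arabidopsis receptor protein kinase, had SP2 signals of 1483, 1133 and 1163 against SP1 signals of 566, 418 and 322. The signals did not overlap between the RNAs, and the log2 ratios were 1.39, 1.44 and 1.85 (mean 1.56 ± 0.15, 2.95-fold). Contig2019, a match to a rice receptor kinase, was dimmer, with SP2 signals of 519, 335 and 315 and SP1 signals of 211, 189 and 168. Its ratios of 1.30, 0.82 and 0.91 gave a mean of 1.01 ± 0.15 (2.016-fold), again without overlap of the signals. For these 3 receptor kinases the spread between arrays was small beside the mean, with no array below 0.82.

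The lectin receptor kinases, whose outer domain resembles sugar-binding legume lectins, had smaller ratios of the same sign on every array. Contig18582, a Lecrk match measured by 1 probe, had ratios from 0.55 to 0.84 and was called higher (0.71 ± 0.14). The call was lost without array 2 (0.69) and without array 3 (0.64), and also under median centring (0.79) and in the deposited ratios (1.01). Contig3114, a match to lectin-like receptor kinase 7;2 of Medicago, lay between 0.45 and 0.52 and was not called (0.50 ± 0.13). It was called without array 1, at 0.48.

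On the other side were 3 receptor kinases lower in SP2 RNA. Contig14256 matched the somatic embryogenesis receptor-like kinase SERK1 of maize. In Arabidopsis, SERK proteins are co-receptors of leucine-rich repeat receptors, among them the brassinosteroid receptor. Its SP2 signals were 1495, 1563.5 and 1076, against SP1 signals of 10189, 8072 and 2864. In SP1 RNA it was the brightest of all members on each array, although its SP1 signal was much lower on array 3 than on the others. The signals did not overlap, and the ratios of -2.77, -2.37 and -1.41 gave a mean of -2.18 ± 0.26 (4.542-fold lower in SP2 RNA). The call was lost under median centring (-1.92).

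Contig5537 matched a LysM receptor-like kinase of Medicago, and LysM receptors sense chitin fragments and related molecules of fungi and bacteria. It gave SP2 signals of 546, 638 and 382 against SP1 signals of 2074.5, 1773 and 994. Each SP2 signal was below each SP1 signal, with ratios of -1.93, -1.47 and -1.38 (mean -1.59 ± 0.16, 3.018-fold lower). TMIRS_014_F10.F, a receptor-like kinase by its rice match, had SP2 signals of 1246, 870.5 and 643.5 and SP1 signals of 2933, 2176 and 1105. The lowest SP1 signal, on array 3, was below the highest SP2 signal, on array 1, so that the RNAs overlapped across arrays although each array gave a negative ratio (-1.24, -1.32 and -0.78, mean -1.11 ± 0.16). Both genes lost their call with the deposited ratios, at -1.36 for Contig5537 and -0.83 for TMIRS_014_F10.F, and the latter also under median centring (-0.96).

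The remaining 4 receptor kinases were not called. Contig1407, a weak match to a receptor-like kinase, had ratios of 0.19 to 0.66 (mean 0.38 ± 0.15), and the LRK1-like singleton had ratios of 0.10 to 0.42 (0.27 ± 0.14). Contig10372 matched PERK1, a kinase with a proline-rich outer domain that resembles cell wall extensins. It was at -0.82 on array 1 and at 0.43 and 0.71 on arrays 2 and 3 (0.11 ± 0.29), and without array 1 it was called, at 0.57. Contig3330, a weak match to a leucine-rich repeat receptor-like kinase, showed the same order with -0.55, 0.19 and 0.20 (-0.06 ± 0.19). These 2 were the receptor kinases whose sign differed between arrays, with array 1 apart in both.

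**Figure D2:**
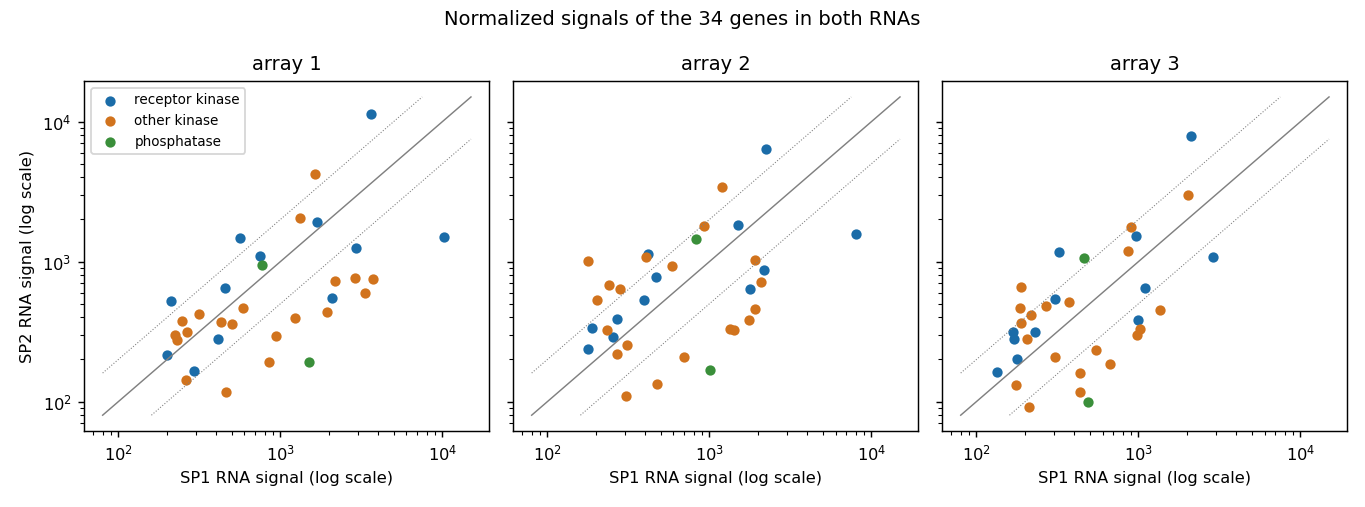
Normalized signal in SP2 RNA (y axis) against SP1 RNA (x axis) on log scales in arbitrary intensity units, 1 point per gene and 1 panel per array, with receptor kinases in blue, other kinases in orange and phosphatases in green. The solid line marks equal signals and the dotted lines 2-fold differences. Over the 3 arrays the signals of the RNAs did not overlap for 22 genes and overlapped for 12. The share over all genes was not counted and the members were chosen by measured values, so nothing is read from these counts.

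Among the 20 other protein kinases, 5 were called higher in SP2 RNA, 8 were called lower and 7 were not called, with a median log2 ratio of -0.49 and a range of -2.10 to 1.57. None of the 20 means lay between -0.44 and 0.42 or between -1.56 and -0.67. The study entered genes in its table for differences of at least 2-fold, so nothing is read from these gaps. The 8 that were called lower all lay between -2.10 and -1.56, which is at least 2-fold, whereas the 5 that were called higher lay between 0.85 and 1.57.

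Several of the lower kinases have a known place in a signaling pathway. Contig4830 matched a SOS2-like kinase of soybean. SOS2 of Arabidopsis belongs to the CIPK family, kinases switched on by calcium-binding CBL proteins, and acts in salt tolerance. Its SP2 signals were 599.9, 383 and 331 against SP1 signals of 3316, 1755 and 1023. No SP2 signal reached the lowest SP1 signal, and the ratios were -2.47, -2.20 and -1.63 (mean -2.10 ± 0.19, 4.276-fold lower). Contig14987, a weak match to CIPK18 of the same family, had SP2 signals of 727, 1031 and 1192 and SP1 signals of 2164, 1922 and 858. Its ratios were -1.57 and -0.90 on arrays 1 and 2 but 0.47 on array 3 (mean -0.67 ± 0.36), so that it was not called with all arrays. It was called lower without array 3, at -1.24.

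The CDPK-related singleton, a weak match to kinases that resemble calcium-dependent protein kinases, had SP2 signals of 393, 325 and 233 and SP1 signals of 1222.5, 1423.5 and 550.0. Its ratios of -1.64, -2.13 and -1.24 (mean -1.67 ± 0.19, 3.18-fold lower) came without overlap of the signals. A list of 4 calcium sensors and calmodulin-binding proteins was picked from the study's table, to stand beside the calcium-linked kinases. It may leave out others of their kind. Of the 4, 2 were called higher and 1 lower. Contig15340, a calmodulin, was at 1.98 ± 0.14, and the putative calmodulin-binding protein of Contig16628 was at 0.80 ± 0.17. The pathogen-induced calmodulin-binding protein of TMIRS_001_A07.F was at -1.31 ± 0.15, and the EF hand protein of Contig2700 was not called (-0.44 ± 0.20). The calmodulin and the EF hand protein thus had means on opposite sides of 0, the latter without a call. The calmodulin-binding proteins also stood on opposite sides. Both CIPK-family matches and the CDPK-related match had means below 0, but Contig14987 was not called and was at 0.47 on array 3.

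Contig16256 was described as a CTR1-like kinase. In Arabidopsis, CTR1 sits directly behind the ethylene receptors and holds the ethylene response down as long as no ethylene is bound. It had SP2 signals of 434, 328.5 and 186.5 against SP1 signals of 1938, 1333 and 669. The signals did not overlap, and the ratios of -2.16, -2.02 and -1.84 lay close together (mean -2.01 ± 0.14, 4.02-fold lower). Of the receptors upstream, the cucumber ETR2 match of Contig15412 was at -1.75 ± 0.38, where array 3 gave -0.49 while arrays 1 and 2 gave -2.58 and -2.18, and the ethylene receptor singleton was at -1.60 ± 0.22. At the end of the pathway, neither of the 2 tabulated ethylene response factors was called, TMIRS_117_D04.F at 0.98 ± 0.27 and Contig11028 at -0.26 ± 0.32. TMIRS_117_D04.F was above 0 on every array (0.56, 1.83 and 0.55), without overlap of the signals (1.973-fold). Contig11028 changed sign (-0.96, -0.61 and 0.77), and its signals overlapped. All 4 tabulated hormone receptors were called lower in SP2 RNA (median -1.67). The others were the match to BRI1, the brassinosteroid receptor kinase (TMIRS_154_A07.F, -1.29 ± 0.26), and the match to the cytokinin receptor CRE1a (Contig1898, -1.74 ± 0.20). The BRI1 match was at -1.82 and -1.54 on arrays 1 and 2 but at -0.51 on array 3. Across arrays, the signals of the RNAs overlapped for the BRI1 and ETR2 matches but not for the remaining receptors. These receptors come from the same table as the members and were therefore also chosen by measured values, on this contrast or on the one between fiber ages.

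The MEK1-like singleton matched tomato MEK1, a MAP kinase kinase, which is the middle step of the cascade. Measured by 1 probe, it had SP2 signals of 296, 207 and 161 and SP1 signals of 943, 697 and 437. Its ratios of -1.67, -1.75 and -1.44 (mean -1.62 ± 0.14, 3.076-fold lower) were without overlap of the signals. The p46XlEg22-like singleton was named after a kinase of the frog Xenopus related to Aurora kinases, which act in mitosis. It was the dimmest member in SP2 RNA, with signals of 116.5, 109.6 and 91.9, for which 7 of 9 spots were above background, and SP1 signals of 462, 307 and 210.4. The ratios were -1.99, -1.49 and -1.19 (mean -1.56 ± 0.18, 2.94-fold lower), on the same side as the histones and topoisomerase II above. Contig14349, a match to Nek4 of the NIMA-related kinases, ran from -0.89 to -0.31 and was not called (-0.54 ± 0.17).

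The other 3 lower kinases have matches that say less about their role. The leucine-rich repeat kinase singleton had SP2 signals of 756, 460.2 and 297 against SP1 signals of 3705, 1904 and 979. No overlap was seen, and the ratios were -2.29, -2.05 and -1.72 (mean -2.02 ± 0.16, 4.059-fold lower). TMIRS_150_E03.F, a weak match to a rice serine/threonine kinase measured by 1 probe, had signals of 192, 133.8 and 118 in SP2 RNA and 850.5, 475.5 and 438 in SP1 RNA. Its ratios of -2.15, -1.83 and -1.89 varied little (mean -1.96 ± 0.14, 3.88-fold lower). Contig13801, a match to the Arabidopsis kinase SPK-2, had signals of 766, 709.7 and 452 in SP2 RNA and 2867, 2073 and 1351 in SP1 RNA. The ratios were -1.90, -1.55 and -1.58 (mean -1.68 ± 0.15, 3.198-fold lower), without overlap.

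Among the kinases higher in SP2 RNA, several had ratios that differed widely between arrays. TMIRS_082_E07.F matched PBS1, an Arabidopsis kinase whose cleavage by a bacterial protease sets off a defense response. Its SP2 signals were 297, 1014 and 658, and its SP1 signals were 225, 179 and 188. The SP2 signal of array 1 was far below those of arrays 2 and 3 although still above every SP1 signal, and the ratios were 0.40, 2.50 and 1.81 (mean 1.57 ± 0.37, 2.972-fold). Contig3000, a leucine-rich repeat kinase, showed the same order of arrays. Its SP2 signals of 277.5, 684 and 469 stood against SP1 signals of 230.2, 239 and 185, and its ratios were 0.27, 1.52 and 1.34 (mean 1.04 ± 0.25, 2.059-fold). Both calls were lost with the median of probes (1.61 and 1.01), with no filter on dim probes (1.57 and 1.04), with median centring (1.63 and 1.10) and with the deposited ratios (1.99 and 1.45), and that of Contig3000 also without array 2 (0.80).

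Contig2250 was a weak match to the SCY1 family of kinase-like proteins, which act in membrane traffic in yeast and animals. It was bright, with SP2 signals of 4211, 3399 and 3004 and SP1 signals of 1629, 1194 and 2015. Array 3 gave the lowest ratio, and the 3 ratios were 1.37, 1.51 and 0.58 (mean 1.15 ± 0.21, 2.222-fold). The call was lost without array 1 (1.04) and under median centring (1.36). Contig15933, a serine kinase-like protein measured by 1 probe, had ratios of 0.63 to 0.97 (0.85 ± 0.14), and Contig5489, a match to a serine/threonine kinase of *Gossypium arboreum*, had ratios of 0.42 to 1.18 (0.85 ± 0.18). Both were called higher. Without array 2 neither call held (0.80 and 0.69), nor without array 3 (0.79 and 0.80), nor with median centring (0.99 and 0.90) or the deposited ratios (1.16 and 1.18).

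Of the kinases not called, 4 had means above 0. Contig14730 was at 0.87 ± 0.23 with ratios of 0.26 to 1.40, Contig3447 at 0.52 ± 0.31 with ratios of -0.33 to 1.42, Contig16714 at 0.51 ± 0.13 with ratios of 0.45 to 0.62, and Contig3454 at 0.42 ± 0.22 with ratios of -0.23 to 0.83. Their descriptions name a protein kinase and no pathway. Without array 1, Contig14730 (1.18), Contig3454 (0.75) and Contig16714 (0.46) were called higher, and without array 3 Contig14730 was called as well (0.83). Contig3291, another leucine-rich repeat kinase, lay between -0.55 and -0.29 (-0.44 ± 0.14). The 3 leucine-rich repeat kinases described without the word receptor thus had 1 call in each direction and 1 gene without a call.

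The protein phosphatases were 2 genes with means on opposite sides of 0. Contig659 matched a serine/threonine protein phosphatase of the cyanobacterium Trichodesmium, and the match was weak. Its SP2 signals were 192, 168 and 99.1, against SP1 signals of 1512, 1002 and 486. Each SP2 signal was below each SP1 signal, and the ratios of -2.97, -2.58 and -2.29 gave the lowest mean of the 34 members (-2.62 ± 0.17, 6.129-fold lower in SP2 RNA). Contig13397 was described as a regulatory subunit of protein phosphatase 2A, a major serine/threonine phosphatase whose regulatory subunits select the substrates. Its SP2 signals of 942, 1462 and 1058.5 were above its SP1 signals of 771, 829 and 464. The signals of the RNAs did not overlap, but the ratios varied from 0.29 to 0.82 and 1.19, and with a mean of 0.77 ± 0.20 (1.70-fold) the gene was not called. Without array 1 it was called higher, at 1.00.

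Receptor kinases and other kinases were compared by their medians, as a description. The BRI1 match (TMIRS_154_A07.F, -1.29 ± 0.26, called lower) is in neither class, since its description does not use the word kinase. The median log2 ratio of the 12 receptor kinases exceeded that of the 20 other kinases by 0.81, and by 0.83, 0.72 and 0.53 on arrays 1, 2 and 3. The difference had the same sign on each array, but it was smaller than the range within either class. It fell to 0.39 when the 7 weak matches were left out, and it was 0.81 again when the 3 leucine-rich repeat kinases without the word receptor were counted as receptor kinases. With the arrays turned by the labels it was -0.15. The shares with the same sign on all arrays were 10 of 12 receptor kinases and 17 of 20 other kinases.

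**Figure D3:**
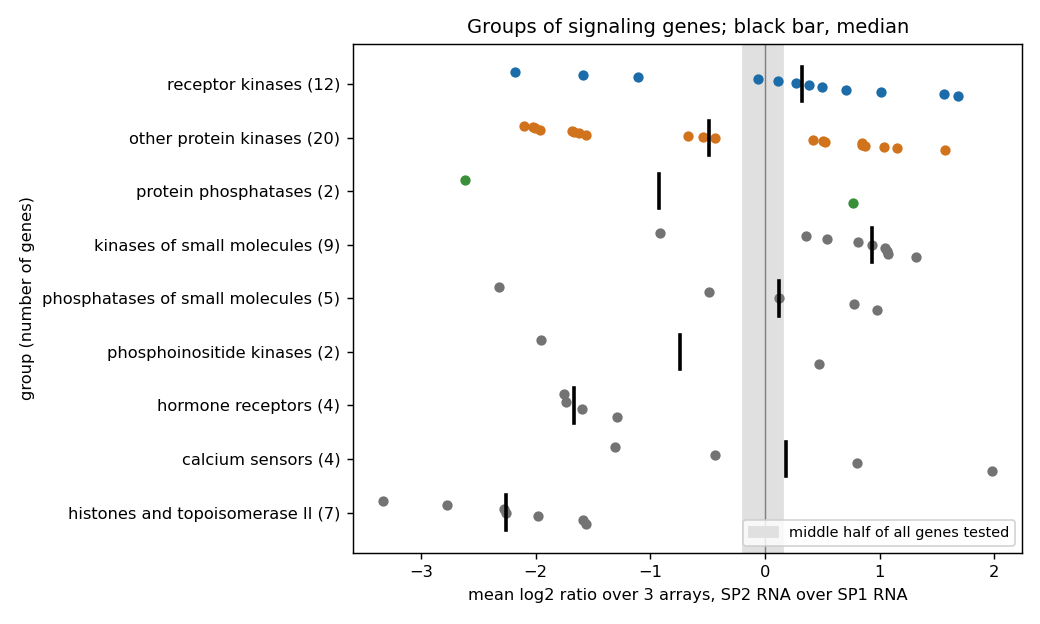
Mean log2 ratio over 3 arrays of SP2 RNA over SP1 RNA (x axis) for the genes of each group (y axis, number of genes in parentheses), 1 point per gene, with a black bar at the group's median. The gray band covers the middle of all 11081 genes, from -0.19 to 0.16; receptor kinases have a median of 0.32, other kinases of -0.49, hormone receptors of -1.67, and histones with topoisomerase II of -2.26.

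The arrays did not weigh equally in these values. On array 1, 15 of the 34 members had a positive ratio, against 19 on array 2 and 20 on array 3. The median of the members was -0.40, 0.35 and 0.45 on arrays 1, 2 and 3. The other tabulated genes also had their lowest median on array 1 (-0.03, 0.32 and 0.32), whereas all genes had medians of 0.06, -0.02 and -0.02. The sign on array 1 was that of the mean of the other arrays for 30 members, on array 2 for 32 and on array 3 for 31. The range over the arrays had a median of 0.579 among the members and of 0.462 over all genes, and the median SE was 0.163 and 0.153. Array 1 was also the array with the noisier negative controls, and the part of that noise in the lower ratios of array 1 was not tested. With the arrays turned by the dyes of the labels, 4 of the 34 members had the same sign on all arrays, against 29 by the codes. By the labels this was not counted over all genes, so nothing is read from it.

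Probes of the same gene gave a further view of the error. The members had 4 probes in 22 cases, 3 in 8 and 1 in 4, and the probes of a gene share its RNA and its arrays, so they are not replicates. Probes left out by the filter on dim probes are not counted in what follows. Of the 30 members with several probes, 29 had all probes on the same side of 0 (96.7%). Over all genes this held for 6061 of 10268 (59.0%), where most genes lie near 0. The members were chosen by measured values, partly on these arrays, so nothing is read from these shares. The exception was Contig3330, with 3 of 4 probes on the side of its mean. The size of the ratio varied between probes. In Contig13801 the probe means ran from -2.33 to -0.43, in the CDPK-related singleton from -2.33 to -0.61 and in the leucine-rich repeat kinase singleton from -2.59 to -0.98. By contrast, the 4 probes of the LysM match Contig5537 lay between -1.69 and -1.39. All spots were above background in both RNAs for 30 members and no member had a saturated spot.

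**Figure D4:**
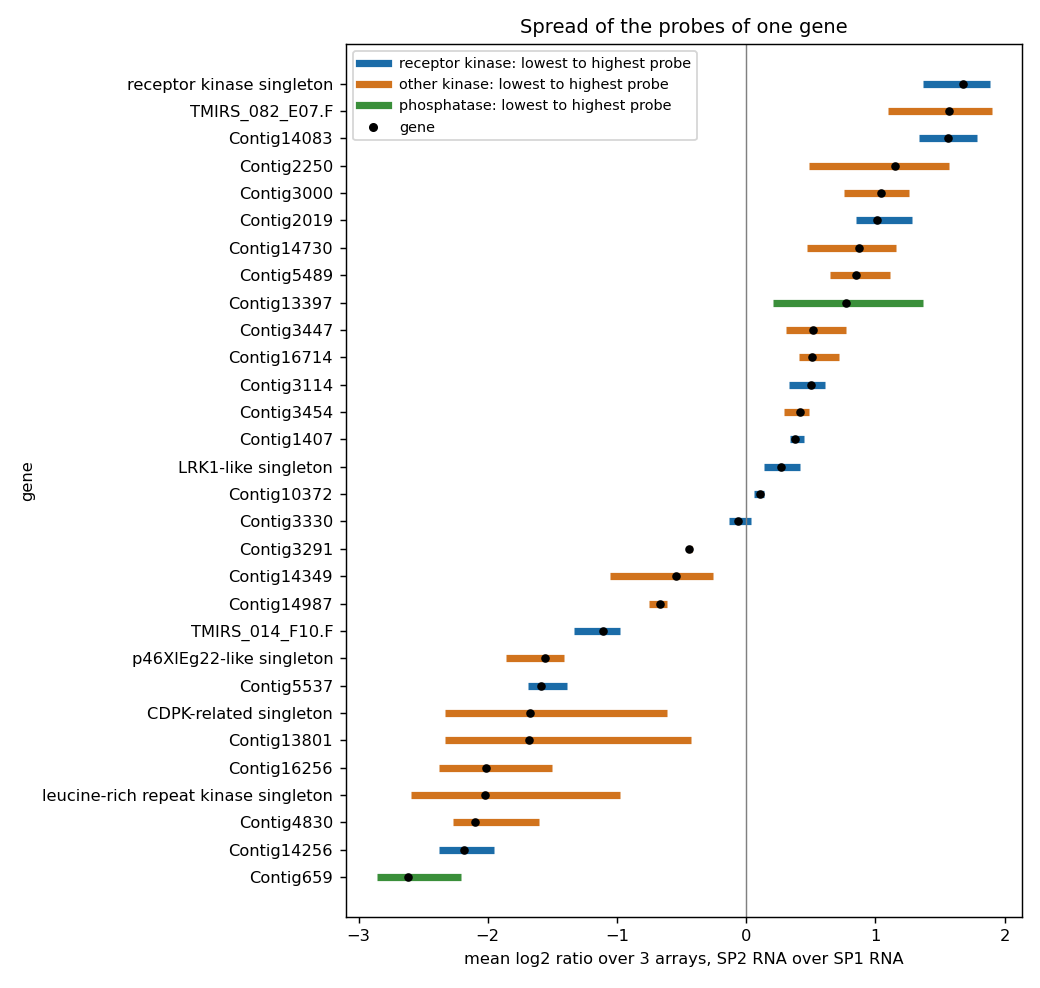
Mean log2 ratio over 3 arrays of SP2 RNA over SP1 RNA (x axis) for the 30 genes with several probes (y axis), with a black point for the gene and a colored bar from its lowest to its highest probe. The bar crosses 0 in Contig3330 only, and is widest in Contig13801, from -2.33 to -0.43.

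Neighboring genes of the table that handle phosphate on other molecules, or that bind phosphorylated proteins, were read from lists outside the rule. Of 9 kinases of small molecules, 5 were called higher in SP2 RNA and 1 lower, with a median of 0.93. They included 3 pyruvate kinases, which make ATP in the last step of glycolysis, at 1.32 ± 0.18 (Contig97), 1.06 ± 0.26 (Contig5604) and 1.05 ± 0.17 (TMIRS_118_C01.F), and an adenosine kinase at 1.07 ± 0.21 (Contig698). The one called lower was a pyrophosphate-dependent phosphofructokinase match (Contig14996, -0.92 ± 0.20). Of 5 phosphatases of small molecules, 1 was called higher, the phosphoserine phosphatase of serine synthesis (Contig2067, 0.98 ± 0.17), and 1 lower, a purple acid phosphatase (Contig15290, -2.32 ± 0.18). Of 2 phosphoinositide kinases, which phosphorylate membrane lipids, Contig5568 was called lower (-1.95 ± 0.28) and Contig6817 was not called (0.47 ± 0.17). Of 2 genes for 14-3-3 proteins, which bind phosphorylated serine and threonine, Contig16760 was called higher (0.73 ± 0.17) and Contig497 was not (-0.04 ± 0.15). Of 3 listed genes whose descriptions name a kinase in words outside the rule, Contig15919, a predicted kinase, was called higher (0.79 ± 0.18). The other 1002 tabulated genes tested had 310 called higher and 285 lower, with the same median as the members, 0.19.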

How the data were processed

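The deposited scanner files hold, for green and for red, the mean intensity of each spot and of the background around it, as the authors quantified it with Agilent Feature Extraction (version not given in the sources used here) with neither background nor dyes corrected. A deposited value of other kind is a flag, 0 or 1, for green spots well above background. The deposited table of the series holds the authors' log2 ratio of background-subtracted red over green, which a recomputation matched at 42034 of 42034 spots within 1e-08. It was not centred (medians -0.00901, 0.223 and -0.537) nor turned for the dye swap, and it served as an alternative.

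The 44290 spots per array included 2256 controls. Background was corrected by normexp with an offset of 50 and ratios were normalized within arrays by loess, with limma 3.58.1 in R 4.3.3. Of 40372 probes, 38713 were kept, with either channel above background on at least 2 arrays, red being called against the negative controls (median plus 2.6 robust SD). Genes are means of their probes, and probes of their spots, which left 11081 of 11143 genes. Ratios turned by the RNA codes were tested against 0 with lmFit and eBayes and adjusted by Benjamini-Hochberg, and errors are moderated SE over 3 arrays. The fit was tested on simulated data. Signals of 65000 or more counted as saturated. The number of arrays limits the precision.

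The members and the gene lists were chosen with earlier results of these data known. All members may be named, with values on each array for those at least 2-fold with the same sign on all arrays, for both phosphatases and for members with a known pathway. Descriptions came from the study's table, whose own fold changes and p-values were not used. Arrays of older fiber were not analysed here.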

Additional observations from a re-analysis of the deposited data

How the results depend on the processing

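All 21 called members kept the direction of their ratio under the alternatives that turn the arrays by the codes, and 13 to 21 of them kept their call, apart from the ordinary test. With saturated spots left out, no call changed. Turning the arrays by the dyes of the labels left 0 of 11081 genes called by limma (538 at an unadjusted p under 0.05) and 0 members higher or lower (2 at an unadjusted p under 0.05), with a difference between the medians of receptor and other kinases of -0.15. Every called member then changed sign. Those higher in SP2 RNA went to -0.58 (receptor kinase singleton), -1.30 (TMIRS_082_E07.F), -0.63 (Contig14083), -0.24 (Contig2250), -0.86 (Contig3000), -0.43 (Contig15933), -0.14 (Contig2019), -0.57 (Contig5489) and -0.34 (Contig18582). Those lower went to 0.29 (TMIRS_014_F10.F), 0.23 (p46XlEg22-like singleton), 0.31 (Contig5537), 0.51 (MEK1-like singleton), 0.58 (CDPK-related singleton), 0.41 (Contig13801), 0.53 (TMIRS_150_E03.F), 0.57 (Contig16256), 0.49 (leucine-rich repeat kinase singleton), 0.34 (Contig14256), 0.45 (Contig4830) and 0.63 (Contig659).

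Of all genes, 1359 were called in the reported fit, 329 with median centring, 246 with the deposited ratios, 2 with the ordinary test (1712 at an unadjusted p under 0.05) and 716 at the threshold that the methods state (2-fold or more and an unadjusted p up to 0.05). Of the members, 3 were higher and 10 lower after median centring, and 4 higher and 10 lower in the deposited ratios. The ordinary test called 0 higher and 0 lower, with 20 members at an unadjusted p under 0.05. The deposited ratios moved the median of all genes from 0.04 to 0.25 and the difference between the classes to 0.98. Leaving out the weak matches moved that difference to 0.39. The dye term added 4 calls, Contig14730, Contig13397, Contig3447 and Contig14987. The causes were not tested. Leaving out each array in turn gave 994 to 1999 genes, 5 to 14 members higher, 12 to 13 members lower and a class difference of 0.74 to 0.84. The reported fit already pairs the 2 RNAs of each array through their ratio, and the arrays are 1 group, so no further pairing was made. Each fit has 3 arrays, and members near background, such as the p46XlEg22-like singleton, have the least certain size.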
